A study of Mus musculus with 8 samples.

Results

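The genes described here are the 4 *Egr* genes and the 3 *Nr4a* genes, the immediate early transcription factors of the Egr and Nr4a families, in muscle stem cells (MuSCs) after loss of innervation. They were chosen by symbol, and all 7 were found among the 55487 genes of the count table. The tested animals had undergone DEN, a unilateral sciatic nerve transection in which a piece of the nerve was removed, and the Sham animals had the nerve located and left uncut. All were male C57BL/6 mice, of the C57BL/6J strain and 2 to 6 months of age by the study's methods, and MuSCs were isolated on day 21 after surgery. Muscles of the hind limb were minced and digested with collagenase B and dispase II in both groups, and the sort kept α7-integrin-positive cells that lacked Sca-1, CD11b, CD31 and CD45. The sources do not say whether muscles of the uninjured leg were included. Cells of another kind with the same surface proteins would pass this sort. The study reports that not all cultured α7-integrin-positive cells were Pax7-positive, with no difference in that share between Sham and DEN. It could not exclude that other cells, such as muscle-resident glia, were isolated with the MuSCs. For these data it reported some glia markers, such as *Ngfr*, as enriched and others, such as *Mbp*, as reduced. It named a shift of MuSCs toward a glia-like profile after denervation as another possibility. RNA was sequenced as 1 library per mouse from 4 DEN and 4 Sham mice. The study set DEN replicate 1 apart as an outlier by visual inspection, so DEN replicates 2 to 4 were compared with Sham replicates 1 to 4, and DEN replicate 1 is given separately.

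Immediate early genes are switched on within minutes of a stimulus by transcription factors that are already present in the cell. Egr proteins are zinc finger factors that bind GC-rich sites, and their genes are classic targets of serum response factor (SRF) and its ternary complex partners, which the ERK kinase cascade activates. Nr4a proteins are orphan nuclear receptors that act without a known classical ligand, bind the NBRE as monomers and are induced through CREB and MEF2. In muscle, *Egr3* is needed for muscle spindles, and *Nr4a1* controls genes of glucose use in myofibers. Both families are also known to be induced while tissue is digested to single cells.

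The libraries held 28541080 to 31572843 counts in DEN replicates 2 to 4, 29048620 to 34145854 counts in Sham and 26627173 counts in DEN replicate 1. The share of counts on mitochondrially encoded genes was 2.35 to 2.84% over the 4 DEN libraries, against 3.67 to 5.99% over the 4 Sham libraries. Levels are CPM, read counts scaled to a common library size by TMM, and RPKM, which divides by gene length, was used to set genes against each other. A gene was called where edgeR's quasi-likelihood test gave a Benjamini-Hochberg adjusted p under 0.05 over the 17454 genes tested. In bulk libraries, a lower number of cells of one kind and less RNA per cell cannot be told apart. Of the 9 muscle stem cell markers 2 were higher and 0 lower after DEN, and their summed level was 8759 to 10115 CPM over the 4 DEN libraries, against 7665 to 8873 CPM over Sham. Without Sham replicate 1, 4 of these markers were higher, and without DEN replicate 2, 2 were higher and 1 was lower.

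*Egr1*, *Egr2* and *Egr3* were higher after DEN, and no *Nr4a* gene was called. Of the 7 genes 6 were tested, and 3 of these were called higher and 0 lower, where 5.29% of all tested genes were called higher and 5.32% lower. The 3 DEN libraries were above the 4 Sham libraries without overlap for 4 of the 6 tested genes (*Egr1*, *Egr2*, *Egr3* and *Nr4a1*), where 12.0% of all tested genes showed this. With all 8 libraries 4 of the genes were called higher, where 5.73% of tested genes were, and the added gene was *Nr4a1*. The median log2 fold change of the 6 tested genes was 0.91, beside −0.001 over all tested genes.

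**Figure D1:**
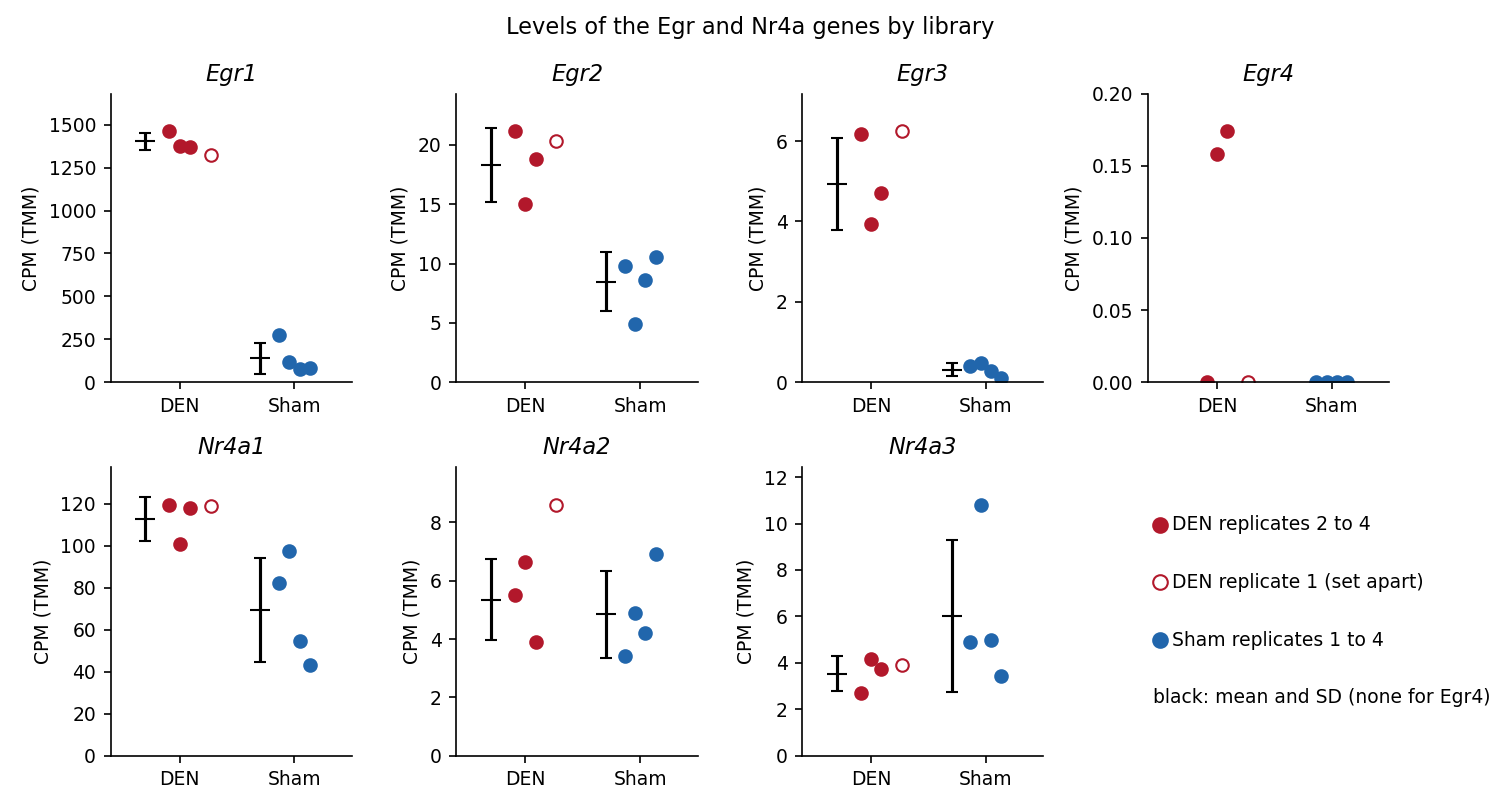
TMM-scaled CPM of each gene in each library, on axes that start at 0, with DEN on the left and Sham on the right and black bars for the mean and SD of DEN replicates 2 to 4 and of Sham. *Egr1*, *Egr2*, *Egr3* and *Nr4a1* had DEN libraries above the Sham libraries, and *Nr4a2* and *Nr4a3* overlapped.

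*Egr1* encodes the most studied Egr factor, an activator of growth and matrix genes. It was at 1462, 1376 and 1371 CPM in DEN replicates 2 to 4, against 274, 119, 77.2 and 84.4 CPM in Sham replicates 1 to 4. The DEN libraries lay close together and well above the Sham libraries, of which replicate 1 was the highest. The mean was 1403 ± 51.5 CPM in DEN (SD, n = 3) and 139 ± 92.3 CPM in Sham (SD, n = 4), a log2 fold change of 3.34 (95% interval 2.49 to 4.18, edgeR adjusted p = 0.000483). DEN replicate 1, which did not enter this fit, was at 1324 CPM. The coefficient of variation was 3.67% among the 3 DEN libraries and 66.5% among the 4 Sham libraries, or 23.8% in Sham without replicate 1. In RPKM *Egr1* ranked 116th, 124th and 130th of all genes in the 3 DEN libraries, against 909th to 3579th in the 4 Sham libraries. Its share of all counts was 0.137 to 0.146% in these DEN libraries, against 0.00766 to 0.0276% in Sham. *Egr1* lies on chromosome 18 (GRCm38, positions 34859823 to 34864984, plus strand).

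*Egr3*, the Egr factor of the muscle spindle, had the largest log2 fold change among the 6 tested genes. It was at 6.18, 3.93 and 4.70 CPM in DEN replicates 2 to 4, against 0.392, 0.465, 0.278 and 0.102 CPM in Sham replicates 1 to 4. The Sham values came from 13, 16, 8 and 3 counts, and the DEN values from 183, 124 and 135 counts. No Sham library reached the level of a DEN library. The mean was 4.94 ± 1.14 CPM in DEN (SD, n = 3) and 0.309 ± 0.158 CPM in Sham (SD, n = 4), a log2 fold change of 3.96 (95% interval 3.12 to 4.80, edgeR adjusted p = 0.000191). DEN replicate 1 was at 6.25 CPM, from 164 counts. On the log2(RPM + 1) scale of limma, whose pseudocount of 1 exceeds the Sham level, the log2 fold change was 2.17, below that of *Egr1* (3.53). *Egr3* lies on chromosome 14 (GRCm38, positions 70077203 to 70082614, plus strand).

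*Egr2* encodes the Egr factor that drives myelination in Schwann cells, which makes it a marker of those cells as well as an immediate early gene. It was at 21.2, 15.03 and 18.8 CPM in DEN replicates 2 to 4, against 9.80, 4.94, 8.61 and 10.5 CPM in Sham replicates 1 to 4. The groups did not overlap, although the gap between DEN replicate 3 and Sham replicate 4 was smaller than the range of either group. The mean was 18.3 ± 3.10 CPM in DEN (SD, n = 3) and 8.47 ± 2.48 CPM in Sham (SD, n = 4), a log2 fold change of 1.12 (95% interval 0.60 to 1.63, edgeR adjusted p = 0.0131). DEN replicate 1 was at 20.4 CPM. The call was lost when DEN replicate 2 was left out (edgeR adjusted p = 0.0552). *Egr2* lies on chromosome 10 (GRCm38, positions 67535475 to 67542188, plus strand).

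Most called markers of myelinating Schwann cells were lower. Of the 9 on the list 5 were lower and 1 was higher after DEN. The summed level of the 9 was 683 to 968 CPM over the 4 DEN libraries, against 952 to 1299 CPM over Sham. Much of this sum was *Pmp22*, which was not called (edgeR adjusted p = 0.17). *Pmp22* was at 611 ± 73.8 CPM in DEN (SD, n = 3) and 737 ± 97.4 CPM in Sham (SD, n = 4), with 623 CPM in DEN replicate 1. *Mbp*, a myelin protein gene, fell to 30.5 ± 4.70 CPM in DEN (SD, n = 3), against 95.4 ± 24.0 CPM in Sham (SD, n = 4), with an edgeR adjusted p of 0.000413. *Sox10*, the glial factor that acts before *Egr2*, was at 24.9 ± 6.86 CPM in DEN and 13.2 ± 1.13 CPM in Sham (SD, n = 3 and 4, edgeR adjusted p = 0.00796). Its call was lost with all 8 libraries (edgeR adjusted p = 0.0829), with 12.0 CPM in DEN replicate 1. *Sox10* was at 18.1 to 31.9 CPM in DEN replicates 2 to 4, against 12.3 to 14.8 CPM in Sham. Their part in the *Egr2* result was not tested.

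*Egr4*, the Egr gene known mainly from neurons and testis, was at or near the limit of detection. It had 0, 5 and 5 counts in DEN replicates 2 to 4, against 0 counts in each of the 4 Sham libraries, and 0 counts in DEN replicate 1. A count of 0 allows up to 3 counts, which is 0.0879 to 0.113 CPM at these depths, so no fold is given. It did not pass the count filter and was not tested. *Egr4* lies on chromosome 6 (GRCm38, positions 85511121 to 85513589, minus strand).

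*Nr4a1* encodes the Nr4a receptor best known from muscle. It was at 119, 101 and 118 CPM in DEN replicates 2 to 4, against 82.1, 97.3, 54.8 and 43.0 CPM in Sham replicates 1 to 4. The groups did not overlap, but DEN replicate 3 and Sham replicate 2 lay close to each other. The mean was 113 ± 10.4 CPM in DEN (SD, n = 3) and 69.3 ± 24.8 CPM in Sham (SD, n = 4), a log2 fold change of 0.70 (95% interval 0.19 to 1.21) that was not called (edgeR adjusted p = 0.0805). DEN replicate 1 was at 119 CPM, and with all 8 libraries the log2 fold change was 0.72 (edgeR adjusted p = 0.0492). Without Sham replicate 2 it was 0.91 (edgeR adjusted p = 0.0261), so the call turns on which libraries enter. *Nr4a1* lies on chromosome 15 (GRCm38, positions 101254269 to 101274795, plus strand).

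*Nr4a2* and *Nr4a3* were low in both groups. *Nr4a2*, known for dopamine neurons, was at 5.50, 6.66 and 3.90 CPM in DEN replicates 2 to 4, against 3.41, 4.88, 4.20 and 6.90 CPM in Sham replicates 1 to 4. The groups overlapped, and the log2 fold change of 0.15 (95% interval −0.44 to 0.73) was not called (edgeR adjusted p = 0.797). DEN replicate 1, at 8.61 CPM, was above each Sham library. *Nr4a3*, which in blood cells acts as a tumor suppressor together with *Nr4a1*, was at 2.70, 4.15 and 3.72 CPM in DEN replicates 2 to 4, against 4.89, 10.8, 4.97 and 3.42 CPM in Sham replicates 1 to 4. Sham replicate 2 stood above the other libraries, and the groups overlapped. The log2 fold change of −0.77 (95% interval −1.57 to 0.03) was not called (edgeR adjusted p = 0.212), and it was −0.33 without Sham replicate 2. DEN replicate 1 was at 3.88 CPM. The genes lie on chromosomes 2 (*Nr4a2*, GRCm38, 57106830 to 57124003, minus strand) and 4 (*Nr4a3*, GRCm38, 48045153 to 48086447, plus strand). No exon of another GENCODE M21 gene lay within any of the 7 genes, so counting without strand did not mix them with annotated neighbours.

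**Figure D2:**
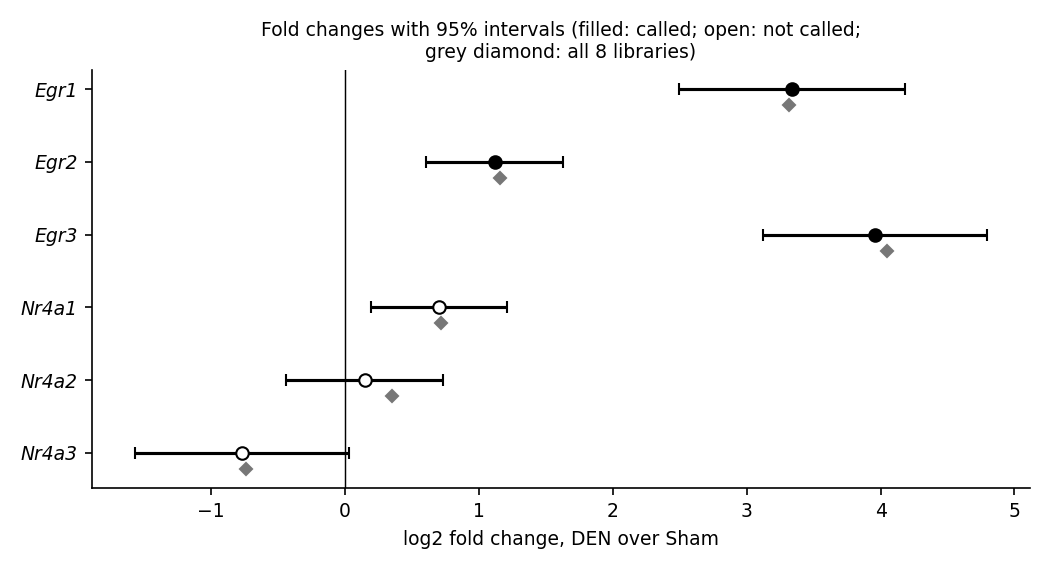
Log2 fold change, DEN over Sham, of the 6 tested genes with 95% intervals from edgeR for 7 libraries (filled where called, open where not), and grey diamonds for all 8 libraries. The intervals of *Egr1* (2.49 to 4.18) and *Egr3* (3.12 to 4.80) lie above that of *Egr2* (0.60 to 1.63), and those of *Nr4a2* and *Nr4a3* include 0.

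Per length, *Egr1* dominated its family and *Nr4a1* dominated its own in each library. *Egr1* made up 97.7 to 98.3% of the summed Egr RPKM in DEN replicates 2 to 4, against 85.8 to 95.4% in Sham. *Nr4a1* made up 92.5 to 95.5% of the summed Nr4a RPKM in DEN and 84.4 to 93.4% in Sham. In RPKM *Egr1* was 9.58, 10.7 and 9.09 times *Nr4a1* in DEN replicates 2 to 4, against 2.62, 0.956, 1.10 and 1.54 times in Sham replicates 1 to 4. The order by mean RPKM in DEN was *Egr1* (314 ± 11.1), *Nr4a1* (32.2 ± 3.05), *Egr2* (5.41 ± 0.918), *Nr4a2* (1.32 ± 0.337), *Egr3* (1.12 ± 0.259), *Nr4a3* (0.590 ± 0.125) and *Egr4* (SD, n = 3). In Sham it was *Egr1* (31.1 ± 20.8), *Nr4a1* (19.8 ± 7.20), *Egr2* (2.50 ± 0.730), *Nr4a2* (1.20 ± 0.370), *Nr4a3* (1.01 ± 0.553), *Egr3* (0.0704 ± 0.0363) and *Egr4* (SD, n = 4). Among neighbours in this order, *Nr4a2* and *Egr3* overlapped in DEN, and *Egr1* and *Nr4a1*, *Egr2* and *Nr4a2*, and *Nr4a2* and *Nr4a3* overlapped in Sham.

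The balance within each family was tested on log2 ratios of RPKM + 0.1 by an exact two-sided permutation test over 35 divisions of the 7 libraries, with adjustment over 5 ratios and a smallest possible p of 0.0286. *Egr2* was at 1.91, 1.44 and 1.81% of the *Egr1* RPKM in DEN replicates 2 to 4, against 4.71, 5.49, 14.7 and 16.5% in Sham replicates 1 to 4. The mean log2 ratio was −5.85 ± 0.21 in DEN (SD, n = 3) and −3.44 ± 0.93 in Sham (SD, n = 4), a difference of −2.41 (exact permutation p = 0.0286, adjusted p = 0.0476 over the 5 ratios and 0.0571 over the 4 without *Egr4*). *Nr4a3* was at 1.33, 2.42 and 1.85% of the *Nr4a1* RPKM in DEN replicates 2 to 4, against 3.49, 6.51, 5.31 and 4.66% in Sham replicates 1 to 4. The difference in mean log2 ratio was −1.35 (exact permutation p = 0.0286, adjusted p = 0.0476 over the 5 ratios and 0.0571 over the 4 without *Egr4*), and no DEN library reached a Sham library. Both ratios thus pass an adjusted p of 0.05 only with the *Egr4* ratio in the adjustment, and that ratio could not be measured in Sham. *Egr3* relative to *Egr1* differed by −0.68 (exact permutation p = 0.171, adjusted p = 0.214) and *Nr4a2* relative to *Nr4a1* by −0.62 (exact permutation p = 0.343, adjusted p = 0.343). Without a pseudocount *Egr3* was at 0.291 to 0.43% of *Egr1* in DEN and 0.122 to 0.398% in Sham, and the difference in mean log2 ratio was then 0.64, of the opposite sign (adjusted exact permutation p = 0.371 over 4 ratios, an alternative chosen after seeing the data). Without a pseudocount *Egr2* relative to *Egr1* differed by −2.38 and *Nr4a3* relative to *Nr4a1* by −1.43, both at the same exact permutation p of 0.0286. The difference of −2.98 for *Egr4* relative to *Egr1* (exact permutation p = 0.0286, adjusted p = 0.0476) rests on a gene at 0 counts in the Sham libraries, so its value follows *Egr1* and the pseudocount.

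**Figure D3:**
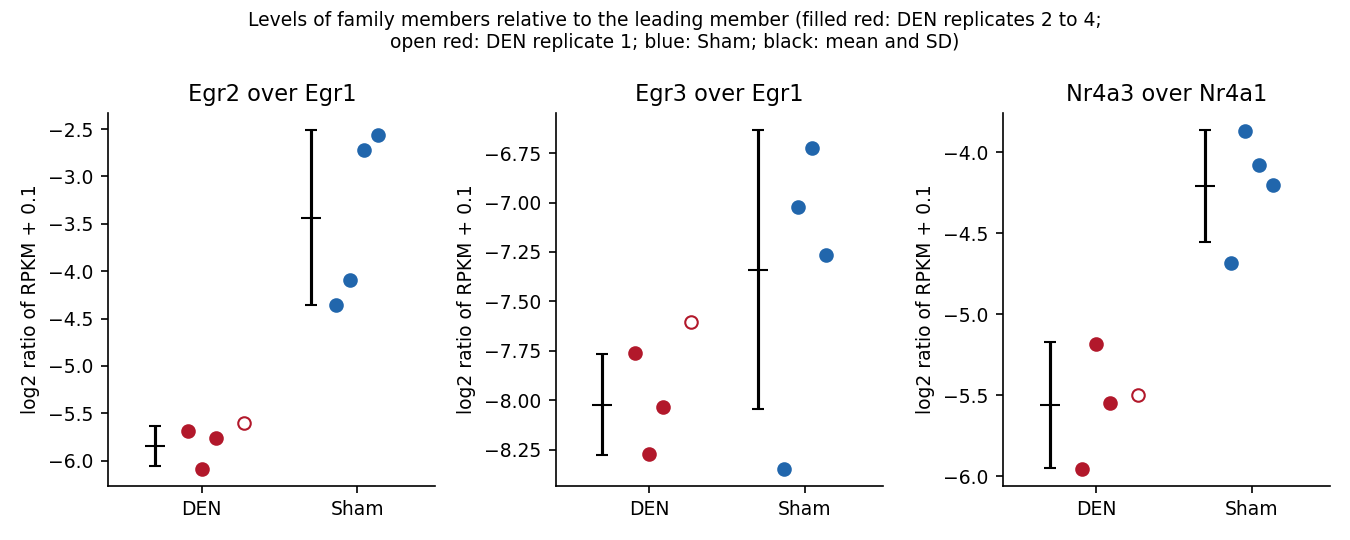
Log2 ratio of RPKM + 0.1 in each library for *Egr2* over *Egr1*, *Egr3* over *Egr1* and *Nr4a3* over *Nr4a1*, with DEN on the left, DEN replicate 1 open, Sham on the right and black bars for mean and SD. DEN libraries lie below Sham libraries without overlap for *Egr2* over *Egr1* and *Nr4a3* over *Nr4a1*, and the groups overlap for *Egr3* over *Egr1*.

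The bases before the start sites of *Egr2*, *Nr4a1*, *Nr4a2* and *Nr4a3* are shown because SRF and CREB are known regulators of both families. They come from RefSeq (GRCm38.p6), in which 5 of the 7 genes had a start site entry, and are given 5′ to 3′ on the gene's strand. *Egr1* and *Egr3* had no entry there, so their windows were not searched. Capitals mark the letters TGACG, the core of a cAMP response element, read on either strand, and the CArG box bound by SRF. The windows are chr10:67537619-67537868 for *Egr2* (plus strand), chr15:101266596-101266845 for *Nr4a1* (plus strand), chr2:57124004-57124253 for *Nr4a2* (minus strand) and chr4:48045055-48045152 for *Nr4a3* (plus strand, ending before its first GENCODE exon).
*Egr2*: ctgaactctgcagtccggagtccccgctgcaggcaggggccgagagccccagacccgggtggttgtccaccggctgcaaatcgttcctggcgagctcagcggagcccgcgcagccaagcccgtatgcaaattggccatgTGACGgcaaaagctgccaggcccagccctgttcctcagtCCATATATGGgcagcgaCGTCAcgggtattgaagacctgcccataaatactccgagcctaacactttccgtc
*Nr4a1*: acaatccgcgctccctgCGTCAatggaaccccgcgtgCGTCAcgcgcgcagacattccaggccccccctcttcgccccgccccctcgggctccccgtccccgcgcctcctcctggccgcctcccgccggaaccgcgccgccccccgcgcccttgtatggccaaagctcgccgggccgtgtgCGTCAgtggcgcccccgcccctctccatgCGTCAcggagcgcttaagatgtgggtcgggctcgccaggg
*Nr4a2*: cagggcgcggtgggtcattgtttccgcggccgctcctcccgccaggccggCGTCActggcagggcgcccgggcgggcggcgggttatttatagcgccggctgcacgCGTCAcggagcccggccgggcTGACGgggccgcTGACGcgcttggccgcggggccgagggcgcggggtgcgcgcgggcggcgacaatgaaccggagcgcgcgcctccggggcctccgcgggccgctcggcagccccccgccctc
*Nr4a3*: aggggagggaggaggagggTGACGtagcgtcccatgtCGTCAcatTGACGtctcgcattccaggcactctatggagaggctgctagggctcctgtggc
*Egr2* had 5 start site entries with partly overlapping windows, of which 1 is shown, and the other 4 matched genes had 1 each. TGACG was found in 3 of the 5 *Egr2* windows and in the window of each other matched gene, and in 17.8% of the 32851 windows of all genes. The CArG box was found in 4 of the 5 *Egr2* windows and in 1.47% of windows of all genes. Its first base lay 72 bases before the start in the window shown. None was found in these windows of the other 4 matched genes. The 3 *Egr2* windows with TGACG end at the same base and hold the same CArG box and TGACG sites, so they are not separate finds. The *Egr2* window chr10:67535249-67535474, directly before the annotated gene start, held neither motif. The window chr10:67537316-67537565 held a CArG box but no TGACG. The full element TGACGTCA, which contains TGACG on both strands, was in 1.55% of windows, the AP-1 site TGAGTCA in 4.46%, the Egr site GCGTGGGCG in 0.536% and the NBRE AAAGGTCA in 1.34%, and none of these was found in the windows of the 5 genes. These matches are letters in a window and were not tested for binding, and their part in the calls was not tested.

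Genes whose profile over the 8 libraries was most like that of *Egr1*, by the root mean square distance of log2 CPM centred on Sham, were other immediate early genes. *Fosb* was nearest (distance 0.18), followed by *Socs3* (0.28), a feedback inhibitor of cytokine signaling, and *Junb* (0.34). For *Egr3* the nearest were *Col8a1* (0.40), a collagen gene, *Socs3* (0.54) and *Fosb* (0.55). For *Egr2* they were *C4b* (0.15) and *C4a* (0.21), complement genes whose reads cannot be fully separated, and *Tuba4a* (0.25). For *Nr4a1* the nearest were *Rin1* (0.18), *Micall2* (0.19) and *Rbl1* (0.23), for *Nr4a2* *Pcdhb4* (0.17), *Rpgr* (0.17) and *Dnajb13* (0.18), and for *Nr4a3* *Zfp879* (0.27), *Map9* (0.27) and *Rbm41* (0.30).

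Most called genes among the other immediate early genes were higher, as *Egr1* and *Egr3* were. The study names some of them for these libraries, so their direction is not independent evidence. Of 46 listed, 43 were tested, 22 were higher and 3 were lower, and 18 were not called, with a median log2 fold change of 0.95. Over all tested genes 5.29% were called higher. *Fos*, the leading AP-1 subunit, was at 2253 ± 201 CPM in DEN (SD, n = 3) and 84.1 ± 45.8 CPM in Sham (SD, n = 4), a log2 fold change of 4.74 (edgeR adjusted p = 6.21e-05). *Junb* was at 1135 CPM in DEN and 117 CPM in Sham, with a log2 fold change of 3.27 (edgeR adjusted p = 6.62e-05). The log2 fold changes of *Jun*, the *Zfp36* decay factor and *Socs3* were 2.37, 2.17 and 3.79 (edgeR adjusted p = 1.26e-05, 5.75e-06 and 5.21e-05). The 3 that were lower, named after their values were seen, were *Rgs2*, *Nfil3* and *Gem*, with log2 fold changes of −1.14, −0.86 and −0.65. With all 8 libraries 22 were higher and 1 was lower, and leaving out each library in turn gave 22 to 23 higher and 1 to 4 lower, with 1 lower without DEN replicate 3, DEN replicate 4 or Sham replicate 2.

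**Figure D4:**
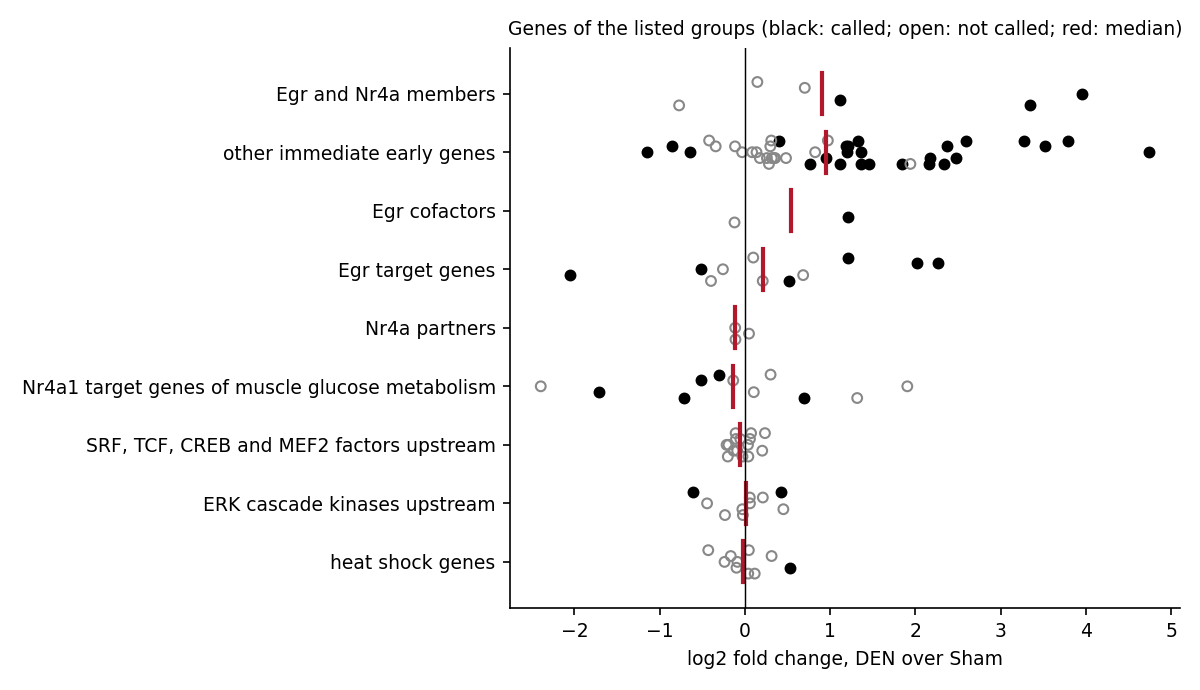
Log2 fold change, DEN over Sham, of each tested gene in the listed groups, with black points for called genes, open points for genes not called and a red line for the median. The other immediate early genes reach 4.74 (*Fos*), and the upstream SRF, TCF, CREB and MEF2 factors range from −0.215 (*Crem*) to 0.235 (*Srf*).

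None of the listed SRF, ternary complex, CREB and MEF2 factors, which act upstream of these genes, was called. Of 15 SRF, ternary complex, CREB and MEF2 factors edgeR and DESeq2 called 0 each, and the median log2 fold change was −0.05. Only 1, *Srf*, had an unadjusted p under 0.05 in edgeR (log2 fold change 0.235, edgeR adjusted p = 0.149). *Srf* was at 30.6 to 33.5 CPM in DEN replicates 2 to 4, against 24.4 to 28.9 CPM in Sham, without overlap. DEN replicate 1, at 27.2 CPM, lay within the Sham range of *Srf*. *Mef2a* was at 130 ± 4.91 CPM in DEN (SD, n = 3) and 141 ± 13.7 CPM in Sham (SD, n = 4), and *Crtc3*, a coactivator of CREB, at 111 ± 10.8 CPM in DEN and 108 ± 9.80 CPM in Sham (SD, n = 3 and 4). Of 10 ERK cascade kinases 1 was higher and 1 was lower. *Mapk3*, which encodes ERK1, had a log2 fold change of 0.42 (edgeR adjusted p = 0.00999), and *Rps6ka5*, a kinase that acts on CREB and histones, one of −0.61 (edgeR adjusted p = 0.00767). These are RNA levels, and kinase activity was not measured.

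Of the Egr corepressors, *Nab2*, itself an Egr target, rose to 42.0 ± 8.27 CPM in DEN (SD, n = 3), against 18.2 ± 3.28 CPM in Sham (SD, n = 4), a log2 fold change of 1.21 (edgeR adjusted p = 0.00134). *Nab1* was not called (log2 fold change −0.12, edgeR adjusted p = 0.424). Of 11 tested Egr target genes, which include *Nab2*, 4 were higher and 2 lower, with a median log2 fold change of 0.21. *Tgfb1*, a secreted growth factor, had a log2 fold change of 2.26 (edgeR adjusted p = 0.000386), whereas *F3*, which starts blood clotting, and *Fn1*, a matrix glycoprotein, had −2.05 and −0.52 (edgeR adjusted p = 0.00729 and 0.00829). With all 8 libraries 3 were higher and 2 lower, and leaving out libraries one at a time gave 3 to 5 higher.

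Of the 3 Nr4a partners tested, the retinoid X receptors, edgeR and DESeq2 called 0, with 0 at an unadjusted p under 0.05, and *Rxra* was at 115 ± 4.13 CPM in DEN (SD, n = 3) and 124 ± 7.10 CPM in Sham (SD, n = 4). Of 11 genes of muscle glucose metabolism that *Nr4a1* controls in myofibers, 1 was higher and 4 were lower, with a median log2 fold change of −0.14. *Pgam2*, a glycolytic enzyme, had a log2 fold change of 0.70 (edgeR adjusted p = 0.00665). *Pygm*, the muscle glycogen phosphorylase, and *Phkg1*, a subunit of the kinase that activates it, had −0.52 and −1.71 (edgeR adjusted p = 0.00255 and 0.00654). *Bpgm*, which makes bisphosphoglycerate and is abundant in red blood cells, had −0.72 (edgeR adjusted p = 0.0205), and its call was lost without DEN replicate 2 or DEN replicate 3. The fourth lower gene, *Pfkm*, was called at an edgeR adjusted p of 0.0483 and was not called with all 8 libraries (0.203) or without any of the 7 libraries. With libraries left out one at a time 2 to 3 of these genes were lower, 2 of them without DEN replicate 2 or DEN replicate 3, and 2 were higher without DEN replicate 2 or Sham replicate 3.

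Markers of other cells and of handling stress moved as follows. Adult myofiber markers were higher in 5 of 6, with summed levels of 716 to 925 CPM in the 4 DEN libraries and 213 to 352 CPM in Sham. Erythroid markers were lower in 5 of 5, with 1575 to 2939 CPM in DEN and 5054 to 10170 CPM in Sham. Of 7 tested macrophage and myeloid markers 1, *C1qb*, was higher, a call lost without DEN replicate 2 or Sham replicates 1, 2 or 3, and the gene did not pass the count filter without Sham replicate 4. Without DEN replicate 3, 4 of 9 tested myeloid markers were higher, and without DEN replicate 2, 0 were higher and 1 was lower. The 10 listed summed to 109 CPM in DEN replicate 2, to 7.92 and 6.65 CPM in DEN replicates 3 and 4 and to 3.69 CPM in DEN replicate 1, against 16.8 to 52.6 CPM in the Sham libraries, and *Itgam* was at 0 in every Sham library. DEN replicate 2 had the highest myeloid sum of the 8 libraries and, among DEN replicates 2 to 4, the highest *Egr1*, *Egr2*, *Egr3* and *Nr4a1* (1462, 21.2, 6.18 and 119.5 CPM). DEN replicate 1 had the lowest myeloid sum of the 8 libraries, with these genes at 1324, 20.4, 6.25 and 118.7 CPM. Its *Egr3* level was the highest of the 8 libraries. Without DEN replicate 2 the log2 fold changes were 3.31 for *Egr1*, 1.00 for *Egr2* and 3.77 for *Egr3* (edgeR adjusted p = 0.00214, 0.0552 and 0.00126). Of 10 heat shock genes 1, *Dnajb1*, was higher (log2 fold change 0.52, edgeR adjusted p = 0.0404) and 0 were lower, and its call was lost without DEN replicates 2, 3 or 4 or Sham replicates 2 or 4. Their part in the immediate early result was not tested.

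**Figure D5:**
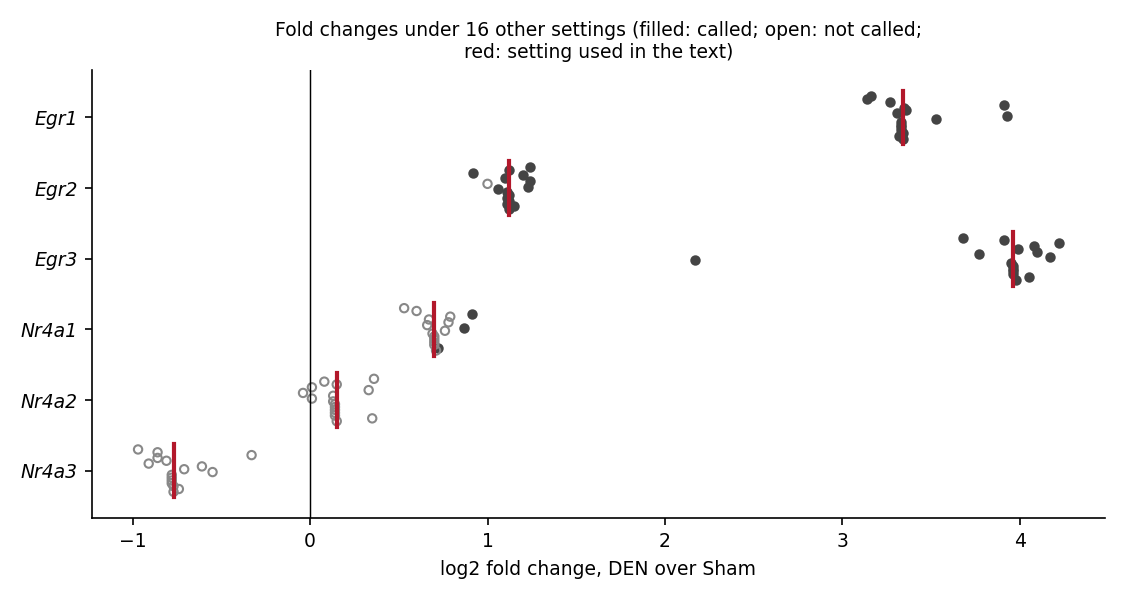
Log2 fold change, DEN over Sham, of each tested gene under 16 other settings (filled where called, open where not), with a red line for the setting used in the text. *Egr1* ranges over 3.14 to 3.93 and *Egr3* over 2.17 to 4.22, while *Nr4a2* ranges over −0.04 to 0.36 around 0.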

How the data were processed

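MuSC libraries were made from FACS-isolated cells by full-length cDNA synthesis (SMART-Seq v4) and Nextera XT, and read single-end. Per the submitters' processing notes, reads were processed with bcl2fastq 2.20.0.422, cutadapt 2.1, TopHat2 2.1.0 and featureCounts 1.6.5 on GRCm38, and reads were counted without strand. The deposited counts are whole reads per gene. For RPM, the authors scaled each library's counts to its total. For RPKM, the authors further divided by 1 fixed length per gene. Counts were used for tests, RPM for 1 alternative and RPKM for levels between genes and for ratios (pseudocount 0.1).

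Genes were kept by filterByExpr (minimum count 10, minimum total 15), leaving 17454 of 28772 genes with a count (17008 with 8 libraries), scaled by TMM (factors 0.990 to 1.006) and tested with the quasi-likelihood test of edgeR 4.0.16 (robust) in R 4.3.3, with Benjamini-Hochberg adjustment. Intervals are 95%. The test was checked on simulated counts. Genes were named by these rules: the 7 genes, the 3 tested genes nearest in profile to each, up to 4 called genes (or 2 of highest level) per list, and *Junb*. Lists were Egr cofactors and targets, upstream factors and kinases, Nr4a partners and targets, other immediate early genes, heat shock genes and cell type markers. The genes and lists were chosen with earlier results of these data known. *Srf* and some other genes were named after their values were seen. Alternatives were DESeq2 1.42.0, limma 3.58.1, all 8 libraries, other scalings and filters, a replicate block and each library left out. Replicates were separate mice. Samples were grouped by GEO titles.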

Additional observations from a re-analysis of the deposited data

Results flagged for a closer look

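DEN replicate 1 lay outside the comparison of 7 libraries, and its levels of the 3 called genes were above those of every Sham library. *Egr1* was at 1324 CPM there, against 77.2 to 274 CPM in Sham, *Egr2* at 20.4 CPM, against 4.94 to 10.5 CPM in Sham, and *Egr3* at 6.25 CPM, against 0.102 to 0.465 CPM in Sham.

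Among the 4 DEN libraries, DEN replicate 3 was below the others for *Nr4a1*, with a gap of 0.922 of the range, above Dixon's 95% critical value. It was at 101 CPM there, and the other DEN libraries were at 118 to 119 CPM. The coefficient of variation over the 4 DEN libraries was 7.90%. Of 13 groups of 4 libraries with a range, 1 exceeded the critical value, and chance gives about 1 in 20.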

How the results depend on the processing

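*Egr1* and *Egr3* were called higher under each of 16 alternatives, with log2 fold changes of 3.14 to 3.93 and 2.17 to 4.22. *Egr2* ranged over 0.92 to 1.24 and was not called without DEN replicate 2. *Nr4a1* ranged over 0.53 to 0.91 and was called with all 8 libraries, with the block and without Sham replicate 2. *Nr4a3* stayed below 0 (−0.97 to −0.33), and *Nr4a2*, not called under any of the alternatives, ranged over −0.04 to 0.36 as each library was left out, below 0 without DEN replicate 3. The genes called in total, 1853 in the comparison of 7 libraries, were 1098 without DEN replicate 2, 1231 without DEN replicate 3 and between 1098 and 1814 as each library was left out, and 2 to 4 of the Egr and Nr4a genes were called higher. The cause was not tested. Replicate numbers shared no detectable deviation (correlations −0.02, 0.01 and −0.05 for pairs 2, 3 and 4). No pairing of the mice by number was thus detected, which does not exclude one. With a replicate block, in which Sham replicate 1 stands alone, 1335 genes were called and *Nr4a1* had a log2 fold change of 0.87 (edgeR adjusted p = 0.0362). The within-number differences with this pairing were −2.72 for *Egr2* over *Egr1*, −3.38 for *Egr4* over *Egr1* and −1.51 for *Nr4a3* over *Nr4a1*, where the exact sign-flip permutation cannot give a p below 0.25. Leaving out each library gave −2.72 to −2.12, −3.38 to −2.67 and −1.54 to −1.16 for these ratios, where exact permutation cannot reach an adjusted p under 0.05 with so few divisions. Adjusted over 4 ratios without *Egr4*, a choice made after seeing the data, the differences of −2.41 (*Egr2* over *Egr1*) and −1.35 (*Nr4a3* over *Nr4a1*) had an exact permutation adjusted p of 0.0571, since fewer ratios at the smallest p enter. With RPKM + 1 the difference for *Egr3* over *Egr1* was −2.50, and with no pseudocount, tried after seeing the data, it was 0.64, with −2.38 for *Egr2* over *Egr1* and −1.43 for *Nr4a3* over *Nr4a1*. With 3 DEN and 4 Sham mice, low genes such as *Egr4* are limited by depth. The p-values of edgeR weigh a group difference against the spread between these mice, which is estimated with help from all tested genes.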

Other observations

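Of 5 fibro-adipogenic progenitor markers 1 was lower and 0 were higher, and *Dcn*, a matrix proteoglycan, was at 91.0 ± 40.4 CPM in DEN (SD, n = 3) and 240 ± 13.3 CPM in Sham (SD, n = 4). Of 6 smooth muscle and pericyte markers 1 was higher and 2 were lower, with *Myh11* at 201 ± 36.9 CPM in DEN and 307 ± 11.8 CPM in Sham (SD, n = 3 and 4). With all 8 libraries 1 was higher and 3 were lower, and without DEN replicate 2, DEN replicate 3, Sham replicate 2 or Sham replicate 4, 0 were higher and 1 was lower. The 6 markers summed to 7876 to 9049 CPM over the 4 DEN libraries, against 8624 to 11183 CPM over Sham. The 9 muscle stem cell markers summed to 8759 to 10115 CPM over DEN and 7665 to 8873 CPM over Sham. *Rgs5* was at 2480 ± 67.5 CPM in DEN and 3366 ± 697 CPM in Sham (SD, n = 3 and 4). *Kcnj8* was at 2410 ± 165 CPM in DEN and 1811 ± 199 CPM in Sham (SD, n = 3 and 4). The share of such cells in the libraries was not tested. Of 6 endothelial, 5 tenocyte and 3 tested lymphocyte markers edgeR called 0 in each list, with 1 in each at an unadjusted p under 0.05, and DESeq2 called 1, 0 and 0.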
